A study of Mus musculus with 24 samples.

Results

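A set of 6 red blood cell genes were followed in mouse brain: Hba-a1 and Hba-a2 (alpha-globin), Hbb-bs and Hbb-bt (beta-globin), Alas2 (heme synthesis) and Slc4a1 (red cell membrane). They are 6 of the 50686 genes in the count tables, and they were read in 23 of 24 libraries, those with at least 1000000 gene counts. They were chosen by name as red cell genes, with their low level in day 20 knockout brains already known, so the day 20 contrast is given below as a description with no test. At day 20 the 6 transcripts averaged 8.05 to 24.9% of the wild-type level in double knockout brains, with no overlap between the groups. Of all genes tested, 10.3% also lay lower without overlap. At day 10 the 6 transcripts averaged 68.4 to 76.5% of wild type, the groups overlapped, and none passed the test.

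Red blood cells carry oxygen on hemoglobin, a tetramer of alpha- and beta-globin chains that each hold a heme. In mammals the mature red cell has lost its nucleus and cannot make new RNA, but young red cells (reticulocytes) still hold globin mRNA and a few other late erythroid transcripts. Blood in the vessels of a tissue therefore brings these transcripts into a bulk RNA sample, also in brain. Because the tissue was read in bulk, fewer red cells in a sample and less of these RNAs per red cell cannot be told apart.

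Double knockout mice (dKO), given the genotype Pank1-/-Syn-Pank2-/-, were set against wild type (WT), all of them C57BL/6. The enzymes made from Pank1 and Pank2 are pantothenate kinases, at the entry to coenzyme A synthesis. What Syn stands for, and so in which cells Pank2 was deleted, is not given in the sources used here. Females and males were taken at day 10 and at day 20, with 3 libraries labelled for each of the 8 groups, and the design set knockout against control at each day with the sexes kept apart. The tissue is labelled back left brain, frozen at once after removal, and the labels do not say whether blood was flushed from the vessels. Nor do they tie each library to an animal of its own, and the spread behind the p-values may be partly technical.

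Pank1 averaged 8.12 ± 0.668 CPM (counts per 1000000 gene counts, scaled by TMM) in dKO brains and 22.7 ± 1.64 CPM in WT brains at day 10 (SD, n = 5 and 6), and 7.49 ± 0.464 CPM in dKO brains against 22.7 ± 2.33 CPM in WT brains at day 20 (n = 6 each). Pank2, counted over the whole gene, averaged 49.6 ± 3.02 CPM in dKO brains and 52.5 ± 3.42 CPM in WT brains at day 10, and 42.0 ± 3.15 against 56.4 ± 3.31 CPM at day 20. Gene counts per library were 10.8 to 20.0 M (mega) in day 10 dKO, 9.19 to 44.7 M in day 10 WT, 15.9 to 27.3 M in day 20 dKO and 18.7 to 42.5 M in day 20 WT. A single count was worth 0.0224 to 0.109 CPM. The library left out, dKO male day 10 replicate 3 by order of deposit, had 45964 gene counts. Of these, 3 were of Hba-a1, 0 of Hba-a2, 7 of Hbb-bs and 2 each of Hbb-bt, Alas2 and Slc4a1. The 7 markers of neurons, astrocytes and oligodendrocytes summed to 4425 to 6403 CPM in dKO and 5957 to 10932 CPM in WT at day 10, and to 11974 to 14388 CPM in dKO and 14732 to 18196 CPM in WT at day 20, so brain transcripts were abundant in every library used.

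In GRCm38 (GENCODE M21) Hba-a1 (chr11:32283511-32284465, plus strand) and Hba-a2 (chr11:32296489-32297298, plus strand) lie in the alpha-globin cluster. Hbb-bs (chr7:103826534-103828096) and Hbb-bt (chr7:103812524-103813996) lie on the minus strand of their cluster. Alas2 (chrX:150547375-150570638, plus strand) shares exonic sequence with Apex2 and Mir3620 on the opposite strand, and Slc4a1 (chr11:102348824-102366203) is on the minus strand. Each is protein coding, and the counts cover all exons. The 429-base coding regions of Hba-a1 and Hba-a2 differed at 1 base and the 444-base coding regions of Hbb-bs and Hbb-bt also at 1 base. Of all 100-base stretches of the Hba-a1 transcript 56.5% also occurred in Hba-a2, and 74.5% of those of Hba-a2 in Hba-a1. For Hbb-bs and Hbb-bt these shares were 62.6 and 54.8%. A read inside such a stretch has no unique place, so the counts of each pair rest on the parts that differ, and the split within a pair is uncertain. Hba-a1 and Hbb-bs shared 0 such stretches.

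The promoters are shown as a description of the genes, and whether they bear on the low day 20 levels was not tested. Slc4a1 had no promoter entry. The 250 bases before the RefSeq start sites (GRCm38.p6) are given on the gene's strand, for 4 of the 5 genes with an entry, with matches to 5 short motifs in capitals, a match on the other strand shown as its reverse complement. Both strands of windows that also take in 50 bases after the start were searched. AGATAA and TGATAA are words bound by GATA factors, among them the product of Gata1, the master regulator of the red cell lineage. The word CACCC is bound by the erythroid factor encoded by Klf1 in the beta-globin promoter. CCAAT is the box of general promoter factors, and ATATAA is a form of the element at which transcription is positioned. The windows are chr11:32283422-32283671 (plus strand) for Hba-a1, chr7:103827929-103828178 (minus) for Hbb-bs, chr7:103813924-103814173 (minus) for Hbb-bt and chrX:150547167-150547416 (plus) for Alas2.
Hba-a1: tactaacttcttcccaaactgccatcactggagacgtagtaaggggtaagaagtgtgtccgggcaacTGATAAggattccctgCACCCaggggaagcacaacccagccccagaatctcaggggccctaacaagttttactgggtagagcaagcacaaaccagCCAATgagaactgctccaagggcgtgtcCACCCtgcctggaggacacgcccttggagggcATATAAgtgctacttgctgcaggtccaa
Hbb-bs: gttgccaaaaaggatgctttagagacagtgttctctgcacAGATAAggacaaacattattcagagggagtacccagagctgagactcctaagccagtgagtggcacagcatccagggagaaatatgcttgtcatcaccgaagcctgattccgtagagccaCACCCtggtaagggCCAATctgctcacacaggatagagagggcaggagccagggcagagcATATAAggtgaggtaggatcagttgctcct
Hbb-bt: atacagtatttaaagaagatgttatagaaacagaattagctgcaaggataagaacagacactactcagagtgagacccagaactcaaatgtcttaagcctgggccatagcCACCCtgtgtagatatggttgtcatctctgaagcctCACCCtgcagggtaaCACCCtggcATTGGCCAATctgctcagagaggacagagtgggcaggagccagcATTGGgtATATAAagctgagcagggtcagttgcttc
Alas2: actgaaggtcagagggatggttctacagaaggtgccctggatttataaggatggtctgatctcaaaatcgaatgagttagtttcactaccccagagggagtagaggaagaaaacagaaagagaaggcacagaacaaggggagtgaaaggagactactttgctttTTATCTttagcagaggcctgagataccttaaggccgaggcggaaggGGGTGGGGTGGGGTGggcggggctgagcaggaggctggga

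The alpha-globin promoters were the same sequence over their shared stretch, with 0 mismatches between Hba-a1 and Hba-a2. In Hba-a1, TGATAA began 183 bases before the start, CACCC 167 and 60, CCAAT 88 and ATATAA 28 bases before it. In Hbb-bs, AGATAA began 210, CACCC 90, CCAAT 76 and ATATAA 30 bases before the start. Hbb-bt, whose window was 71.3% identical to that of Hbb-bs, held CACCC at 140, 104 and 89 bases, CCAAT at 75 bases and, on the other strand, at 80 and 36, and ATATAA at 29 bases before the start. Neither AGATAA nor TGATAA occurred in the Hbb-bt window. Alas2 held AGATAA on the other strand 86 bases before the start and CACCC on the other strand at 40, 35 and 30 bases, with neither CCAAT nor ATATAA. Among 32851 RefSeq promoter windows of the same length AGATAA occurred in 11.2%, TGATAA in 9.05%, CACCC in 57.5%, CCAAT in 37.4% and ATATAA in 9.82%. One of the GATA-type words together with CACCC, as in Hba-a1, Hba-a2, Hbb-bs and Alas2, occurred in 8.96%. A match of letters is not a bound site.

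**Figure D1:**
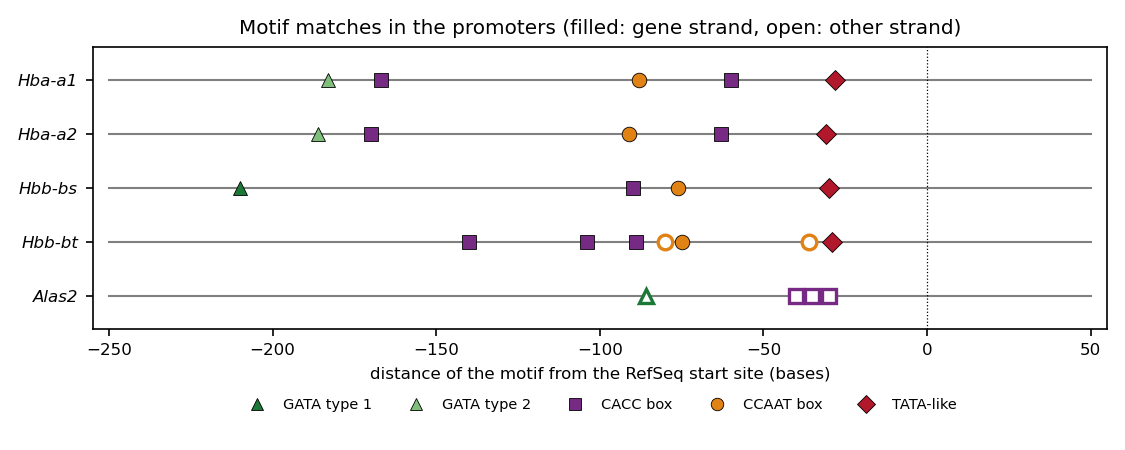
Motif matches by distance (bases) from the RefSeq start site in 5 promoters, with filled symbols on the gene's strand and open symbols on the other. The alpha-globin promoters show the same order of matches, shifted by 3 bases, and no GATA-type match was found in Hbb-bt.

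Hba-a1 and Hba-a2 encode the alpha chains of adult hemoglobin. At day 20 Hba-a1 had 12.01, 15.9 and 25.7 CPM (lowest, median, highest) in 6 dKO libraries, against 61.5, 94.3 and 129 CPM in 6 WT libraries. Every dKO library lay below every WT library. At day 10 Hba-a1 had 77.9, 67.9 and 53.4 CPM in dKO females and 90.6 and 43.1 CPM in dKO males, against 44.5, 91.6 and 150 CPM (lowest, median, highest) in 6 WT libraries. The groups overlapped, and 1 of 5 dKO libraries was below the lowest WT library. The mean at day 20 was 17.0 ± 4.94 CPM in dKO and 95.3 ± 25.7 CPM in WT (SD, n = 6 each), a fitted log2 change of -2.51 ± 0.34 (SE). At day 10 it was 66.6 ± 18.9 CPM in dKO and 92.3 ± 44.5 CPM in WT (n = 5 and 6), a log2 change of -0.46 ± 0.33 with an adjusted p of 0.435 (edgeR quasi-likelihood test, Benjamini-Hochberg).

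Hba-a2 had 3.35, 5.06 and 8.70 CPM (lowest, median, highest) in day 20 dKO libraries and 21.5, 33.4 and 46.0 CPM in day 20 WT libraries. Again the groups did not overlap. At day 10 it had 30.9, 27.1 and 21.7 CPM in dKO females and 34.9 and 17.7 CPM in dKO males, against 19.0, 32.3 and 73.5 CPM over 6 WT libraries. Here the dKO libraries sat inside the WT range except for 1 male. The fitted log2 change was -2.69 ± 0.38 at day 20 and -0.52 ± 0.36 at day 10 (edgeR adjusted p = 0.408 at day 10).

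Hbb-bs encodes an adult beta-globin chain, and it had the highest level per kilobase of the 6 genes in each group, 92.5 CPM per kb in day 20 dKO and 371 in day 20 WT. At day 20 it had 83.4, 85.7 and 84.0 CPM in dKO females and 57.5, 53.0 and 62.5 CPM in dKO males, against 189, 284 and 403 CPM (lowest, median, highest) in 6 WT libraries. The highest dKO library was thus below the lowest WT library. At day 10 the dKO libraries had 260, 223 and 213 CPM in females and 339 and 179 CPM in males, and the 6 WT libraries 166, 286 and 557 CPM. None of the 5 dKO libraries was below the lowest WT library. The mean was 71.0 ± 14.9 CPM in dKO and 285 ± 77.5 CPM in WT at day 20, and 243 ± 60.8 CPM in dKO and 319 ± 158 CPM in WT at day 10. The log2 change was -2.03 ± 0.30 at day 20, the smallest in size of the 6, and -0.37 ± 0.31 at day 10 (edgeR adjusted p = 0.502 at day 10).

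Hbb-bt encodes the other adult beta chain. In day 20 dKO libraries it had 6.76, 4.38 and 4.08 CPM in females and 4.03, 3.34 and 3.95 CPM in males, against 29.98, 46.3 and 63.5 CPM (lowest, median, highest) in WT. These 6 dKO values rest on 62 to 174 counts each. At day 10 it had 41.8, 38.0 and 26.5 CPM in dKO females and 51.7 and 24.1 CPM in dKO males, against 22.2, 41.5 and 89.5 CPM in WT, with the groups overlapping. The day 20 mean was 4.42 ± 1.19 CPM in dKO and 47.3 ± 12.7 CPM in WT, 9.35% of WT, and the log2 change was -3.42 ± 0.39. At day 10 the log2 change was -0.36 ± 0.35 (edgeR adjusted p = 0.585). Without WT female day 10 replicate 2, the library with the most of all 6 transcripts, it was 0.08.

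**Figure D2:**
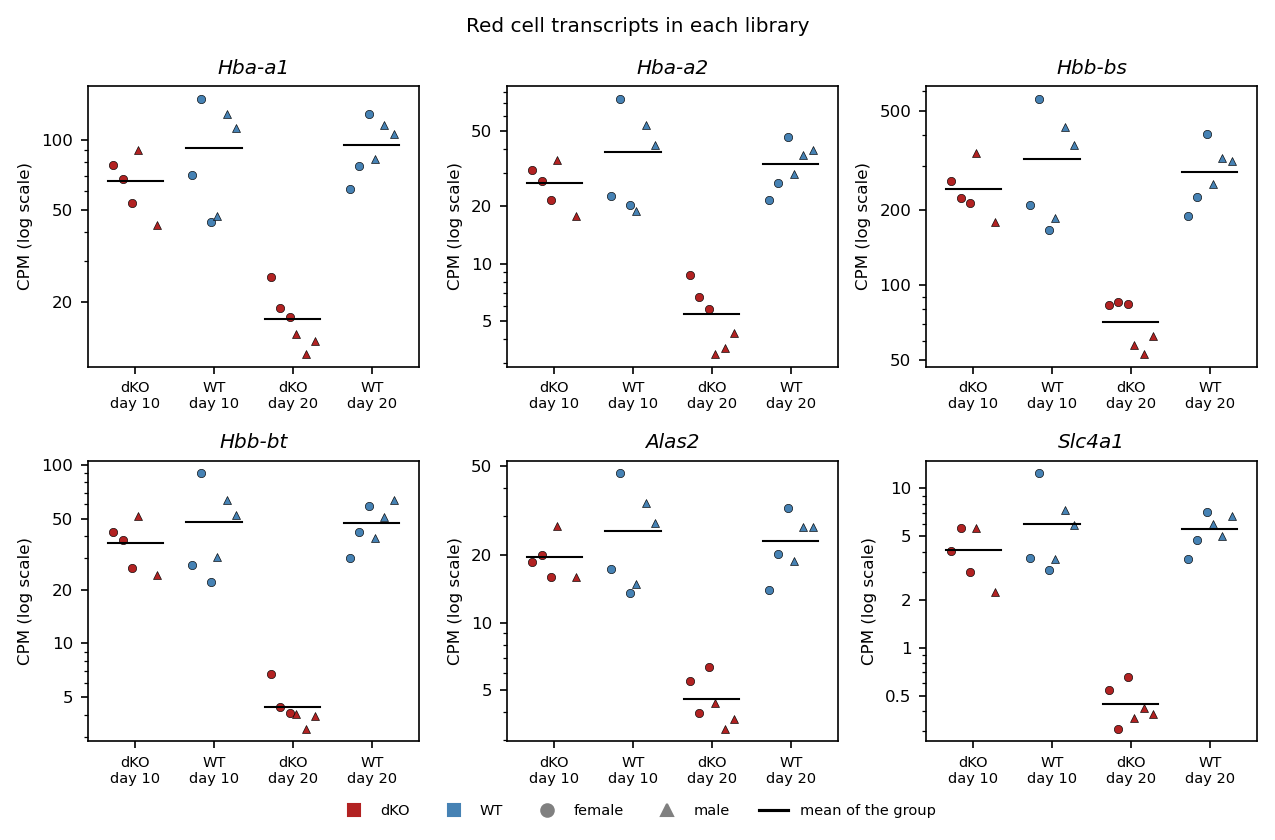
CPM (log scale) of each of the 6 transcripts in 23 libraries, dKO beside WT at each day, with circles for females, triangles for males and a line at the group mean. The 6 dKO libraries of day 20 lie below all 6 WT libraries of that day for each transcript, and at day 10 the groups overlap.

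Alas2 encodes the erythroid aminolevulinate synthase, which makes the first precursor of heme. It had 5.51, 3.96 and 6.38 CPM in dKO females and 4.39, 3.38 and 3.73 CPM in dKO males at day 20, against 14.0, 23.5 and 32.5 CPM (lowest, median, highest) in WT. No dKO library reached the lowest WT library. At day 10 it had 18.7, 20.1 and 16.04 CPM in dKO females and 26.9 and 16.003 CPM in dKO males, against 13.6, 22.6 and 46.3 CPM in WT, and all 5 dKO values were inside the WT range. The log2 change was -2.37 ± 0.34 at day 20 and -0.35 ± 0.32 at day 10 (edgeR adjusted p = 0.548 at day 10). Without WT female day 10 replicate 2 the day 10 value was 0.001. These are counts from the gene's own strand. With both strands counted together the day 20 log2 change was -0.79, since reads from the opposite strand at Alas2 then enter, and the difference between the genotype changes at day 20 and day 10 was -0.59 in place of -2.02. The forward strand column, which holds those reads, had 15.7 ± 1.18 CPM at Alas2 in dKO and 11.8 ± 0.445 CPM in WT at day 20.

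Slc4a1 encodes band 3, the anion exchanger and main integral protein of the red cell membrane. It had 0.544, 0.310 and 0.658 CPM in dKO females and 0.362, 0.417 and 0.384 CPM in dKO males at day 20, against 3.61, 5.52 and 7.10 CPM (lowest, median, highest) in WT. The dKO libraries held 7 to 14 counts each and 57 in all, and the WT libraries 87 to 242 counts each. At day 10 it had 4.02, 5.63 and 2.97 CPM in dKO females and 5.61 and 2.23 CPM in dKO males, against 3.07, 4.76 and 12.4 CPM in WT. There 2 of 5 dKO libraries were below the lowest WT library. The log2 change at day 20, -3.66 ± 0.44, was the largest in size of the 6, and the dKO mean of 0.446 ± 0.130 CPM was 8.05% of the WT mean of 5.53 ± 1.31 CPM. At day 10 the log2 change was -0.53 ± 0.35 (edgeR adjusted p = 0.392).

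At day 10, then, 0 of 6 passed an adjusted p of 0.05, 0 had an unadjusted p under 0.05, and DESeq2 and limma-voom also called 0. Over all 21657 genes tested, 4.99% were called in that contrast. All 6 fitted changes lay below 0, from -0.53 to -0.35, with a median of -0.42 against 0.01 over all genes. The 6 transcripts move together from library to library, so this is not 6 separate observations. The approximate 95% interval of the day 10 change ran from -1.22 to 0.17 for Slc4a1 and from -0.98 to 0.23 for Hbb-bs on the log2 scale. The WT libraries of day 10 spread widely, with a highest to lowest ratio of 3.35 to 4.03 over the 6 genes. In females alone the day 10 changes were -0.57 to -0.37 and in males -0.52 to -0.24, and 0 of 6 were called in either sex, against 0.319% of all genes in females and 0.0139% in males.

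At day 20 all 6 lacked overlap between the groups, as did 10.3% of all genes, in the lower direction. This describes the contrast that was known when the genes were chosen. A fitted fall past 4-fold, reached by each of the 6, was found in 0.342% of all genes, and one past 8-fold, reached by Hbb-bt and Slc4a1, in 0.0877%. Hbb-bs only just passed 4-fold, at a log2 change of -2.03, and fell short of it at -1.83 with 1 library left out. The median log2 change of the 6 was -2.60, against 0.00 over all genes. The globin genes together made up 0.00720 to 0.0125% of gene counts in dKO and 0.0302 to 0.0636% in WT at day 20. Their sum was 97.8 ± 21.9 CPM in dKO and 461 ± 123 CPM in WT at day 20, and 372 ± 96.7 CPM in dKO and 497 ± 249.3 CPM in WT at day 10.

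In WT the libraries of day 20 and day 10 overlapped for all 6. From day 10 to day 20 the log2 change in WT lay between -0.19 for Hba-a2 and 0.06 for Hba-a1, each smaller than its SE of 0.29 to 0.33. In dKO it was -1.998 ± 0.35 for Hba-a1, -2.36 ± 0.40 for Hba-a2, -1.81 ± 0.31 for Hbb-bs, -3.05 ± 0.41 for Hbb-bt, -2.15 ± 0.35 for Alas2 and -3.19 ± 0.47 for Slc4a1. No day 20 dKO library reached the lowest day 10 dKO library for any of the 6, which was so for 18.9% of all genes. The difference between the genotype changes of the 2 days ran from -1.65 ± 0.42 for Hbb-bs to -3.13 ± 0.58 for Slc4a1. These values use the day 20 libraries and so carry no test.

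WT males and females overlapped at each day for all 6. Over both days the male to female log2 difference in WT was 0.03 to 0.16 with SEs of 0.29 to 0.33, and 0 of 6 were called (smallest adjusted p = 0.9999, edgeR), against 0.0693% of all genes. Intervals of that size hold sex differences of up to 0.80 on the log2 scale for Hbb-bt. In day 20 dKO brains, males had less than females of Hba-a1 (12.01 to 14.6 against 17.3 to 25.7 CPM), Hba-a2 (3.35 to 4.33 against 5.79 to 8.70 CPM) and Hbb-bs (53.0 to 62.5 against 83.4 to 85.7 CPM), with no overlap. For Hbb-bt the sexes also did not overlap, but only by 4.03 against 4.08 CPM. Males below females without overlap in day 20 dKO was found for 12.5% of all genes. Alas2 and Slc4a1 overlapped between the sexes. The fitted fall at day 20 was deeper in males for each of the 6, for example -2.92 ± 0.49 in males and -2.10 ± 0.47 in females for Hba-a1 and -2.37 ± 0.43 in males and -1.69 ± 0.42 in females for Hbb-bs. The difference itself was -0.52 to -1.11 with SEs of 0.59 to 0.98, and 0 of 6 were called (adjusted p from 0.526 to 0.844, edgeR; 0 had an unadjusted p under 0.05, DESeq2 and limma-voom called 0), as were 0% of all genes. At day 10 the same test called 0 of 6 and 0% of all genes (adjusted p of the 6 from 0.927 to 0.9999).

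The 6 transcripts did not keep the same proportions at day 20, which the counts within a library show without any scaling between libraries. These shares use the day 20 libraries and carry no test. Hbb-bt made up 5.90 ± 1.06% of Hbb counts in dKO, with a range of 4.63 to 7.497%, and 14.3 ± 1.56% in WT, with a range of 12.7 to 16.8% (SD, n = 6 each). At day 10 it made up 12.9 ± 1.42% in dKO and 12.8 ± 1.05% in WT. The share in day 20 dKO was below that of every other library. Slc4a1 had 0.464 ± 0.117 counts per 100 globin counts in dKO and 1.22 ± 0.176 in WT at day 20, with ranges of 0.268 to 0.592 and 0.958 to 1.48, against 1.09 ± 0.290 in dKO and 1.19 ± 0.147 in WT at day 10. In all 6 day 20 dKO libraries Hbb-bt was thus lower relative to Hbb-bs, and Slc4a1 relative to the globins, than in any other library.

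Relative to the globins, Alas2 on its own strand overlapped between the genotypes at both days. It had 4.70 ± 0.842 counts per 100 globin counts in dKO and 5.01 ± 0.306 in WT at day 20, and 5.31 ± 0.571 in dKO and 5.19 ± 0.194 in WT at day 10. With both strands counted these means became 18.7 in dKO and 6.61 in WT at day 20, and 7.81 in dKO and 7.20 in WT at day 10. Alpha-globin made up 22.7 ± 2.51% of globin counts in dKO and 27.9 ± 0.576% in WT at day 20, where 5 of 6 dKO libraries held 20.8 to 22.6% and the sixth, dKO female day 20 replicate 1, 27.6%, inside the WT range of 27.5 to 29.0%. At day 10 this share was 24.9 ± 1.62% in dKO and 26.2 ± 1.64% in WT. Hba-a2 made up 23.7 ± 2.66% of Hba counts in dKO and 25.9 ± 0.988% in WT at day 20, and 28.6 ± 0.516% in dKO and 28.9 ± 3.07% in WT at day 10, with overlap at both days. Since reads shared by near-identical copies are not counted, these shares are of the counts and not of the mRNAs themselves.

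**Figure D3:**
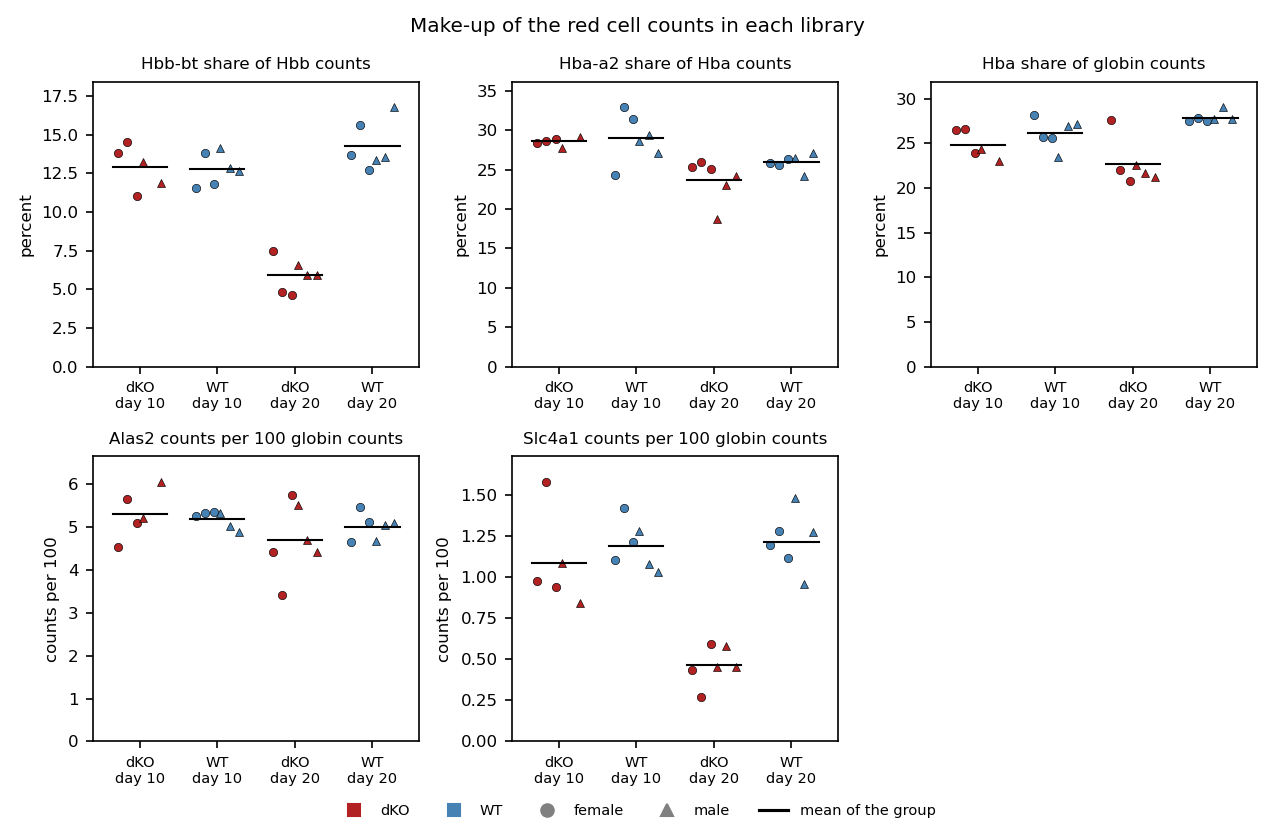
Make-up of the red cell counts in each of 23 libraries (percent, or counts per 100 globin counts), dKO beside WT at each day, with a line at the group mean. Only the Hbb-bt share of Hbb counts and the Slc4a1 counts per 100 globin counts separate day 20 dKO from all other libraries.

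Across the 23 libraries the log2 CPM of the 6 transcripts rose and fell together, with Pearson's r of 0.966 to 0.992 over the 15 pairs. After each group's mean was subtracted r was still 0.827 to 0.968. The points share library, depth and TMM scale, and these values are a description. Against Hbb-bs, the libraries of day 10 and WT day 20 lie along a line of constant ratio for each transcript, and the day 20 dKO libraries lie furthest below it for Hbb-bt and Slc4a1.

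**Figure D4:**
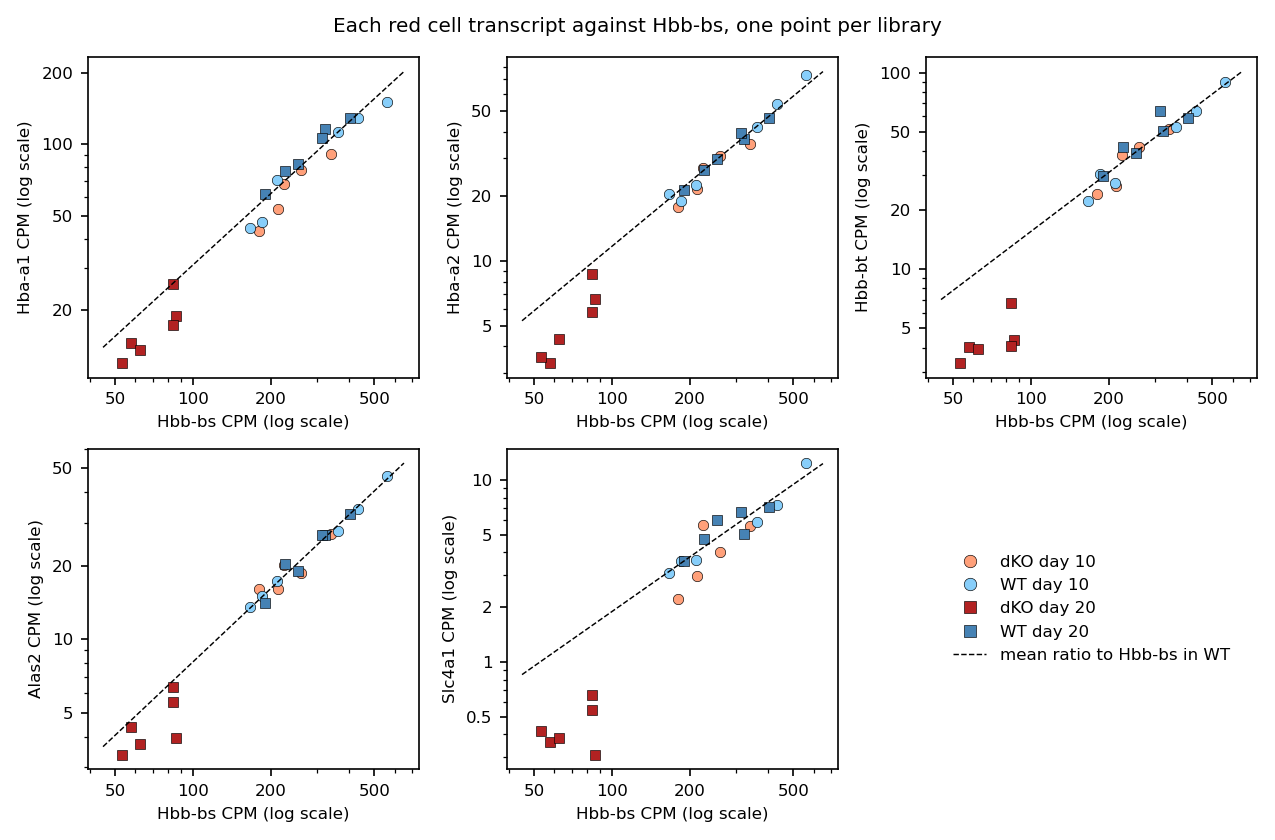
CPM of 5 transcripts against Hbb-bs CPM (both axes log scale), one point per library, with a dashed line at the geometric mean ratio in the 12 WT libraries. Day 20 dKO libraries, at 53.0 to 85.7 CPM of Hbb-bs, lie furthest below the line for Hbb-bt and Slc4a1 and nearer to it for Hba-a1, Hba-a2 and Alas2.

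Outside these 6, lists of red cell genes held 66 symbols, of which 65 were in the table and 48 were tested. At day 10, 4 were lower and 1 higher, against 1.76 and 3.23% of all genes. At day 20, 18 were lower and 6 higher, against 19.2 and 18.8% of all genes. The median log2 change over the 48 was -0.04 at day 10 and -0.01 at day 20, with 0.01 and 0.00 over all genes. Many listed genes are also used by brain cells, and bulk counts do not show which cells a transcript came from. Sptb, beta-spectrin, had 454 ± 19.4 CPM in dKO and 408 ± 19.2 CPM in WT at day 20 and was slightly higher (log2 change 0.15 ± 0.05, edgeR adjusted p = 0.0242).

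Of the other globins, the embryonic genes Hba-x, Hbb-bh0, Hbb-bh1, Hbb-bh2 and Hbb-y had at most 3 counts in all over any group at either day. Hbq1a (theta-globin), Cygb (cytoglobin) and Ngb (neuroglobin, made by neurons) were tested. Cygb was higher at day 20, with 65.3 ± 3.53 CPM in dKO and 55.7 ± 4.13 CPM in WT (log2 change 0.23 ± 0.08, edgeR adjusted p = 0.0243). Ngb had a log2 change of 0.38 ± 0.18 and Hbq1a of 0.46 ± 0.47 at day 20, with edgeR adjusted p of 0.096 and 0.479. At day 10 none of the 3 was called, and the value of Ngb was 0.65 ± 0.20 (adjusted p = 0.0604). Hbq1b had 24 counts over the dKO libraries and 31 over the WT libraries of day 20, and Mb (myoglobin) 8 and 31.

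Among 14 tested genes of the red cell membrane and its skeleton, 7 were lower and 1 higher at day 20, and 3 lower and 0 higher at day 10. The shares over all genes were 19.2% lower and 18.8% higher at day 20, and 1.76 and 3.23% at day 10. Epb42, protein 4.2 of the band 3 complex, had 0.0452, 0.0717 and 0.125 CPM in dKO and 0.540, 0.836 and 1.25 CPM in WT at day 20 (lowest, median, highest; log2 change -3.26 ± 0.49, edgeR adjusted p = 1.79e-05). Its dKO values rest on 11 counts in all, 1 to 3 per library. The day 20 groups did not overlap for Epb42, and its day 10 log2 change, -0.32 ± 0.35, was not called. Xk, which carries a blood group antigen in humans and is also made in brain, was lower at a log2 change of -0.42 ± 0.07 (edgeR adjusted p = 3.62e-05). At day 10 the called genes were Sptb (-0.24 ± 0.06), Ank1 (-0.44 ± 0.12), which encodes ankyrin, and Epb41 (-0.41 ± 0.12), which encodes protein 4.1, with edgeR adjusted p of 0.0241, 0.0423 and 0.0485. These calls were lost in 5 of 31 alternative settings for Sptb, 20 for Ank1 and 22 for Epb41. The lowest mean of these 3 at that day was 141 CPM, for Ank1 in dKO.

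Among 12 tested genes of heme synthesis besides Alas2, 4 were lower and 1 higher at day 20, and 1 lower and 1 higher at day 10. Of all genes, 19.2% were lower and 18.8% higher at day 20, and 1.76 and 3.23% at day 10. Slc25a37 (mitoferrin 1, which brings iron into mitochondria) had 14.7 ± 1.22 CPM in dKO and 25.0 ± 2.21 CPM in WT at day 20 (log2 change -0.76 ± 0.11, edgeR adjusted p = 1.05e-05). Uros, which makes uroporphyrinogen, had 10.7 ± 1.92 CPM in dKO and 16.5 ± 0.803 CPM in WT (-0.63 ± 0.07, adjusted p = 8.53e-07). Cpox, the coproporphyrinogen oxidase, was lower at day 20 (-0.46 ± 0.08, edgeR adjusted p = 5.61e-05) and at day 10 (-0.33 ± 0.08, adjusted p = 0.0333), and Tmem14c, a porphyrin transporter, was lower at day 20 (-0.23 ± 0.06, adjusted p = 0.00382). Abcb10, a mitochondrial transporter, passed the threshold at day 10 (0.18 ± 0.05, edgeR adjusted p = 0.0464), a call lost in 24 of 31 alternative settings; that of Cpox at day 10 was lost in 6. Alas2, at -2.37, lay outside the range of these changes.

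Among 7 tested regulators of red cell development, 2 were lower at day 20 and 0 were called at day 10. The share of all genes lower at day 20 was 19.2%, and 4.99% were called at day 10. Trim10, a gene of terminal red cell development, had 0, 0.111 and 0.311 CPM in dKO (lowest, median, highest) and 0.459, 0.818 and 1.09 CPM in WT at day 20 (log2 change -2.52 ± 0.47, edgeR adjusted p = 0.000198). Its dKO values rest on 17 counts in all, 0 to 8 per library. Lmo2, a partner of Tal1 and Gata1 that endothelium also makes, had a log2 change of -0.32 ± 0.06 (adjusted p = 0.000168). Klf1 had a log2 change of -0.43 ± 0.49 at day 20 and 0.22 ± 0.51 at day 10, on 26 counts in dKO and 42 in WT at day 20, and was not called. The other day 20 changes were -0.01 ± 0.21 for Tal1, 0.21 ± 0.09 for Zfpm1, 0.27 ± 0.24 for Epor (the erythropoietin receptor) and 0.44 ± 0.28 for Trim58, none of them called. Gata1 had 0 counts over the dKO libraries and 8 over the WT libraries of day 20 and was not tested.

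Among 12 tested red cell enzymes and genes of red cell maturation, 5 were lower and 3 higher at day 20 and 0 were called at day 10. Genes lower and higher made up 19.2 and 18.8% of all genes at day 20, and 4.99% were called at day 10. Car2 (carbonic anhydrase 2, also made by oligodendrocytes) had 63.2 ± 11.96 CPM in dKO and 142 ± 26.0 CPM in WT (log2 change -1.18 ± 0.11, edgeR adjusted p = 1.77e-07). Cat, catalase, was lower (log2 change -0.48 ± 0.05, edgeR adjusted p = 3.24e-07). Tfrc, the transferrin receptor through which cells take up iron, was higher, with 301 ± 21.4 CPM in dKO and 189 ± 17.9 CPM in WT (0.67 ± 0.06, edgeR adjusted p = 2.85e-08).

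**Figure D5:**
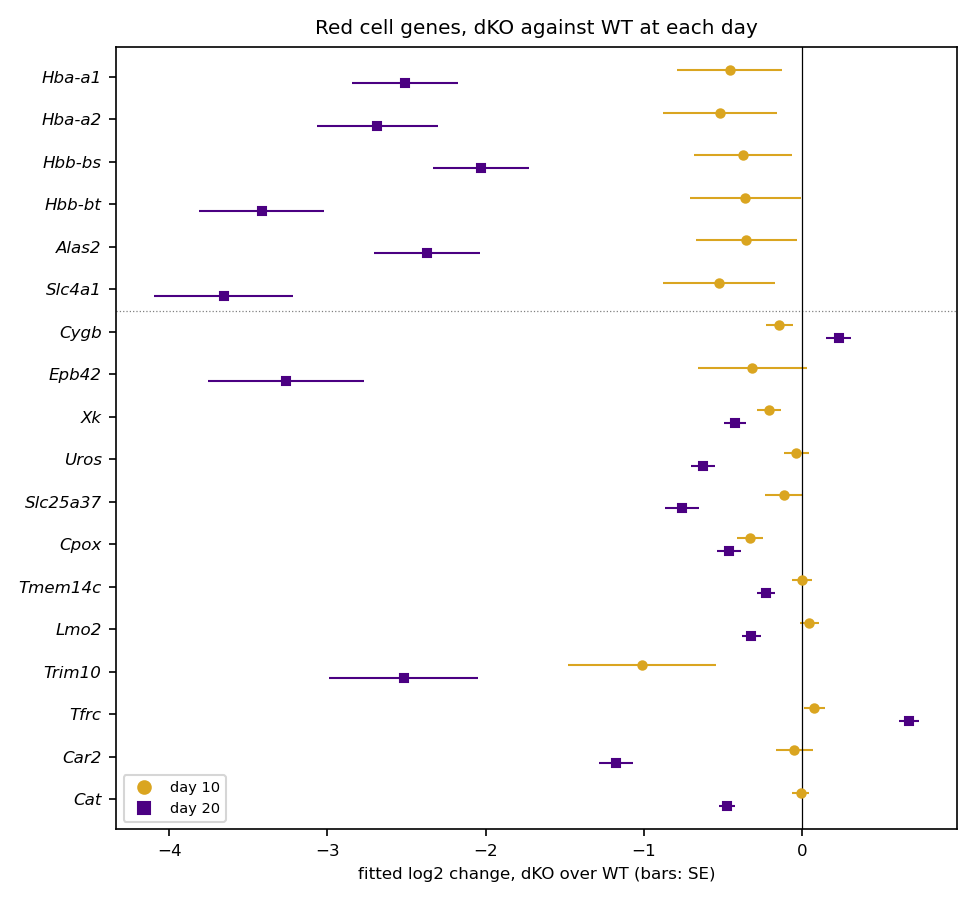
Fitted log2 change of dKO over WT (bars, SE) at day 10 and day 20 for the 6 transcripts (above the dotted line) and for red cell list genes called at day 20, up to 4 per list. Epb42 at -3.26 and Trim10 at -2.52, on 11 and 17 dKO counts, lie beside the 6 at day 20. The other genes shown lie between -1.18 and 0.67.

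Genes were ranked by how closely they followed the 6. With the mean log2 CPM of the 6 transcripts over 23 libraries, the highest Pearson's r was that of Tent5c (0.993), which encodes a poly(A) polymerase that lengthens the tails of mRNAs. Others among the closest were Epb42 (0.960), Rsad2 (0.947, the interferon-induced protein viperin), Ube2l6 (0.939, the conjugating enzyme for ISG15), Ccng1 (0.925, cyclin G1), Dcaf12 (0.920), Tek (0.901) and Slc25a39 (0.899). Tent5c had 3.58 ± 0.960 CPM in dKO and 21.1 ± 5.65 CPM in WT at day 20 (log2 change -2.59 ± 0.38, edgeR adjusted p = 6.00e-05), and 15.9 ± 4.77 CPM in dKO and 22.8 ± 12.6 CPM in WT at day 10 (adjusted p = 0.436). Rsad2 had 1.095 ± 0.331 CPM in dKO and 5.51 ± 1.59 CPM in WT at day 20 (log2 change -2.30 ± 0.37, adjusted p = 0.000104). These genes were picked for their likeness, so their day 20 values are not separate evidence.

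After each group's mean was subtracted, so that only the spread between libraries of a group counts, the closest included Tent5c (0.966), Epb42 (0.826), Rsad2 (0.825), Ube2l6 (0.808), Zfp605 (0.773), Patl1 (0.766), Polr2a (0.763), Rtl10 (0.763) and Apol11b (0.758). Tent5c, Epb42, Rsad2 and Ube2l6 thus stand in the same order in both rankings. Tek, an endothelial receptor, had 0.901 over all libraries and -0.18 within groups, and Polr2a, an RNA polymerase subunit, had 0.763 within groups and -0.72 over all libraries.

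Markers of other blood cells were scarce. The 12 neutrophil markers summed to 6.05 to 7.88 CPM in dKO and 6.02 to 10.2 CPM in WT at day 20, with 1 of 6 tested lower (Csf3r, log2 change -0.38 ± 0.14, edgeR adjusted p = 0.0318). The 11 platelet markers summed to 12.8 to 17.0 CPM in dKO and 14.7 to 18.2 CPM in WT, with 2 of 5 lower and 1 higher. Pf4, on the platelet list, had 0.218 ± 0.118 CPM in dKO and 0.610 ± 0.208 CPM in WT (log2 change -1.56 ± 0.34, edgeR adjusted p = 0.000965). Itgb3 had a log2 change of -0.61 ± 0.11 and Gp1bb of 0.43 ± 0.13. Which cells these transcripts came from is not shown by bulk counts. Of the platelet markers too sparse to test, Gp1ba had 0 counts in all day 20 dKO libraries and 2 over the 6 WT libraries. Ppbp had 2 counts over the dKO libraries and 16 over the WT libraries, and Gp9 had 2 and 13. These genes were picked for their few dKO counts, and the other untested platelet markers are not given here. The 12 lymphocyte markers summed to 4.41 to 8.67 CPM in dKO and 8.37 to 12.7 CPM in WT, with 1 of 2 tested lower (Ighm, -0.54 ± 0.20, edgeR adjusted p = 0.0336). Trbc2, the other tested marker, was not called (log2 change 0.13 ± 0.44, edgeR adjusted p = 0.846). Ms4a1 had 0 counts over the dKO libraries and 26 over the WT libraries, and Cd3d was at 0 in all WT libraries. Ms4a1 was picked for its few dKO counts and Cd3d for its few WT counts, and the other untested lymphocyte markers are not given. Over all genes 19.2% were lower and 18.8% higher at day 20, and 1.76 and 3.23% at day 10. At day 10 the neutrophil, platelet and lymphocyte lists summed to 4.46 to 10.2, 13.3 to 18.9 and 3.64 to 6.19 CPM in dKO and to 5.43 to 8.85, 15.05 to 17.2 and 3.18 to 8.83 CPM in WT, and 1 gene was called, Trbc2, higher by 1.36 ± 0.36 (edgeR adjusted p = 0.0383).

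The vessel lining and the choroid plexus, the vessel-rich tissue that makes cerebrospinal fluid, were read from their markers. Of 15 endothelial markers 8 were lower, 2 higher and 5 not called at day 20, against 19.2% of all genes lower and 18.8% higher, and their sum was 474 to 520 CPM in dKO and 503 to 545 CPM in WT at day 20, and 391.8 to 443 CPM in dKO and 394 to 467 CPM in WT at day 10, where 0 were called. Itm2a (-1.26 ± 0.08), Tek (-1.02 ± 0.07), Kdr (-0.65 ± 0.07) and Cldn5 (-0.62 ± 0.07) were lower, with edgeR adjusted p of 1.50e-10, 3.63e-10, 2.60e-07 and 3.10e-07. The 2 higher were Slc2a1 (0.53 ± 0.09) and Vwf (0.36 ± 0.13), with edgeR adjusted p of 0.000112 and 0.0376. Of 9 choroid plexus markers 5 were lower, 0 higher and 4 not called at day 20, and their sum was 481 to 877 CPM in dKO and 1174 to 1493 CPM in WT at day 20, and 219 to 936 CPM in dKO and 553 to 1131 CPM in WT at day 10, where 0 were called. Sostdc1 (-1.66 ± 0.21), Enpp2 (-1.18 ± 0.18), Kcnj13 (-1.22 ± 0.22) and Kl (-0.92 ± 0.20) led these, with edgeR adjusted p of 2.10e-06, 8.37e-05, 0.000181 and 0.00141. With both strands counted Kcnj13 was not called (-0.19, edgeR adjusted p = 0.305). No endothelial or choroid plexus marker was at 0 throughout a group. The median sums at day 20 were 504 CPM in dKO and 522 CPM in WT for endothelium and 783 CPM in dKO and 1289 CPM in WT for choroid plexus. A sum is weighted to the abundant markers, and the endothelial one joins the 8 lower with the 2 higher markers. The median log2 change at day 20 was -0.25 over the endothelial and -0.80 over the choroid plexus markers. The dKO means of the red cell transcripts were 8.05 to 24.9% of WT. The part of blood cell, vessel and choroid plexus content in the red cell result was not tested.

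Of 8 tested genes that clear hemoglobin and heme or handle the iron, 3 were lower and 1 higher at day 20, and 0 were called at day 10. The shares over all genes were 19.2% lower and 18.8% higher at day 20, and 1.76 and 3.23% at day 10. Slc40a1 (ferroportin, the cell's iron exporter) had 8.77 ± 2.35 CPM in dKO and 17.2 ± 1.09 CPM in WT (log2 change -1.01 ± 0.08, edgeR adjusted p = 2.82e-09). Hmox2 (heme oxygenase 2) changed by -0.15 ± 0.05, Blvra (biliverdin reductase) by -0.24 ± 0.08 and Lrp1 (the receptor for hemopexin-bound heme) by 0.16 ± 0.05, with edgeR adjusted p of 0.0197, 0.0257 and 0.0126. Of the 7 brain markers 2 were lower and 0 higher at day 20, against the same shares of all genes. Syt1 was 1 of the 2 (-0.16 ± 0.06, edgeR adjusted p = 0.0454), and its call was lost in 18 of 31 alternative settings. At day 10 Syt1 was higher (0.24 ± 0.07) and Mbp lower (-0.57 ± 0.15), with edgeR adjusted p of 0.0383 and 0.0402, calls lost in 10 and 13 of the 31 settings.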

How the data were processed

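RNA from mouse brain was read as stranded mRNA libraries (TruSeq Stranded mRNA, per the labels' protocols). The authors deposited raw counts per gene for each library. STAR 2.5.2b, HTSeq and the build GRCm38.p5 are named in the submitters' processing notes; which tool made these counts, and from which annotation, is not known here. Counts came from the reverse-strand column; the forward one held 5.22 to 7.46% as many. Entries that name no gene stayed out of library sizes (41.7 to 47.5% of reads for no feature, 7.65 to 11.0% unmapped, 4.77 to 5.94% multimapping, 0.589 to 1.05% ambiguous). GENCODE M21 named 50462 of 50686 gene identifiers. No library was a copy of another (0 identical pairs).

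In R 4.3.3, edgeR 4.0.16 fitted 23 libraries with 1 mean per group (filterByExpr, 21657 genes, TMM, robust glmQLFit). Contrasts were tested by glmQLFTest, two-sided, with Benjamini-Hochberg adjustment over all genes tested and calls at an adjusted p under 0.05. Contrasts over both sexes average the female and male contrasts. The procedure was tested on simulated data. Levels are CPM with TMM factors, and correlations used log2 CPM with a prior count of 2. Alternatives were DESeq2 1.42.0, limma-voom (limma 3.58.1), RLE factors, other filters, both strands together, the library under 1000000 gene counts added, only the groups compared, and each library left out in turn. The 1 library left out of the main fit is dKO male day 10 replicate 3. Replicate numbers follow the order of deposit and pair nothing.

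The members, the lists and the tests were chosen with earlier results of these data known. Named genes are the 6 members, up to 4 called genes per list and day with the smallest p, all other globins and regulators, and the 10 genes most like the members by each of the 2 correlations. Some genes this rule names are not reported here. Sptb and Trbc2 at day 20, Slc2a1, Vwf, Mb, Hbq1b and Apex2 were named after their values were seen. Promoters came from RefSeq (5 members matched).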

Additional observations from a re-analysis of the deposited data

Results flagged for a closer look

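In day 20 dKO brains, Hbb-bt stood at 6.76 CPM in dKO female replicate 1, apart from the other 5 libraries at 3.34 to 4.38 CPM. The same library had an alpha-globin share of globin counts of 27.6%, against 20.8 to 22.6% in the other 5. In day 20 WT brains, the alpha-globin share was 29.0% in WT male replicate 2, against 27.5 to 27.9% in the other 5. Dixon's criterion was applied to 44 groups of values, and chance alone sets apart about 1 in 20 groups. The forward-strand counts at Alas2, outside the main counts, averaged 15.7 CPM in day 20 dKO brains, with all 6 libraries above the WT range of 11.2 to 12.5 CPM, and at day 10 13.2 CPM in both genotypes. Apex2, which overlaps Alas2 on the opposite strand, had 38.6 ± 2.23 CPM in dKO and 28.6 ± 1.78 CPM in WT at day 20 (SD, n = 6 each; log2 change 0.43 ± 0.06, edgeR adjusted p = 3.49e-06).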

How the results depend on the processing

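At day 10, 0 of the 6 red cell transcripts were called under any alternative run; their day 20 values carry no test. Leaving out WT female day 10 replicate 2 turned the day 10 log2 change of Hbb-bt to 0.079 and of Alas2 to 0.0010; over the 23 libraries left out in turn, the lowest values were -0.68 and -0.56. Counting both strands moved Alas2 at day 20 to -0.79 over both sexes, -0.76 in females and -0.81 in males, and Fbxo7 at day 20 to -0.0084. Day 10 counts were unstable: the 1080 genes called became 2084 with DESeq2, 6 with only the groups compared, and 15 (without dKO male day 10 replicate 2) to 4514 (without dKO male day 10 replicate 1) with 1 library left out, a move of over 1.5 times for 15 of 23 libraries. The 4 red cell list genes lower at day 10 became 2 with no filter, 0 with only the groups compared and 0 to 9 with 1 library left out. The 1 higher became 0 with RLE factors, no filter, both strands, the low library added or only the groups compared, 3 with DESeq2, and 0 to 4 with 1 library left out. The 6 list genes higher at day 20 became 3 with no filter, and 3 to 8 with 1 library left out (3 without dKO male day 20 replicate 1 or without WT female day 20 replicate 1). Of the day 20 calls with values above, those lost were Syt1 (in 18 of 31 settings), Vwf (11), Csf3r (8), Ighm (8), Blvra (6), Cygb (5), Sptb (4), Hmox2 (2), Kcnj13 (1, both strands) and Epb42 (1 of 30, both strands). At day 10 Trbc2 was lost in 9 of 30. The cause was not tested. At 7 to 14 counts per day 20 dKO library, depth limits the precision for Slc4a1. No paired analysis was possible because the labels give no replicate numbers.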
